A study of Mus musculus with 3 samples.

Results

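Efferocytosis is the engulfment of dying cells, and 9 of its genes were followed across the cells of arthritic mouse knee synovium with droplet single-cell RNA sequencing. They were chosen by symbol: the receptor tyrosine kinases Mertk, Axl and Tyro3, the bridging ligands Gas6, Pros1 and Mfge8, and the receptors Timd4, Stab1 and Cd36. All 9 were among the 24357 gene symbols of the deposited matrices. The synovium came from female wild-type C57BL/6 mice aged 8 weeks, each given 100 µg of collagen on day 0, 1 mg of an antibody cocktail on day 21 and lipopolysaccharide on day 22 (collagen- and antibody-induced arthritis), and taken in the effector phase. There were 3 libraries, replicates 1 to 3, each made from the pooled synovium of 2 mice, and no untreated group. Every comparison below is therefore between cell classes of the same arthritic joints, and the spread is that between 3 pools.

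A dying cell exposes phosphatidylserine on its surface, and phagocytes recognise this lipid directly or through soluble bridges. Gas6 binds it and activates Tyro3, Axl and Mertk, protein S (Pros1) binds it and activates Tyro3 and Mertk, and Mfge8 ties it to integrins. TIM-4 (Timd4) and stabilin-1 (Stab1) bind it themselves, and Cd36, a scavenger receptor, takes up oxidised lipids and fatty acids. In the joint, macrophages that carry MERTK are known as tissue-resident cells of the lining and sublining, and recruited neutrophils are a main source of dying cells.

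The matrices held 38804 barcodes with 11939, 11602 and 15263 in replicates 1, 2 and 3, against 11111, 10668 and 14363 cells stated in the labels. After quality and doublet filters 36875 cells remained, with 4702 to 5267 UMIs (unique molecular identifiers, that is, counted RNA molecules) in the median cell of a library. Between 2602 and 2866 barcode names occurred in any pair of libraries, and 0 of these cells had the same counts. Clusters were named from marker lists after the 9 genes and 87 further efferocytosis genes had been left out of the clustering, and 19 classes had at least 20 cells in every library. Names end in "-like" because they rest on RNA. The resident-macrophage-like class (429 cells, 1 cluster) had the highest mean level of 4 of its 5 markers among these classes, with 143 CPM (counts scaled to the total UMIs of a class) of Vsig4, 137 of Cd163, 493 of Folr2 and 25.3 of Lyve1, and the second highest of Cbr2 at 499. Some names were weaker: the tenocyte marker Mkx stood at 5.89 CPM and the adipocyte marker Lep at 2.03 in the cells named for them, 1 infiltrating-monocyte-like cluster of 604 cells was led by the progenitor genes Prtn3 and Elane, 1 Spp1-Arg1-macrophage-like cluster of 535 cells had 2 MHC class II markers (Cd74 and H2-Ab1) and 1 of its own (Arg1) among its 10 leading genes, and 1 sublining cluster of 383 cells by the skeletal genes Ibsp and Col2a1.

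Free RNA in droplets can put a few UMIs of any abundant gene into any cell. For each class an upper limit was set to it from genes that the class should lack, as the CPM that free RNA with the make-up of the whole library could give. A class whose level was not above this limit in all 3 libraries is described below as at background, whether its mean lay under the limit or just over it. Levels are compared between classes for 1 gene at a time and not between genes, since the counts are not scaled to gene length.

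Mertk, a receptor that binds Gas6 and protein S and drives engulfment, was a gene of the macrophages. Its level in resident-macrophage-like cells was 195, 207 and 295 CPM in replicates 1, 2 and 3 (232 ± 54.3, SD, n = 3), against a free RNA limit of 5.67. It was 113, 125 and 146 CPM (128 ± 16.7, n = 3) in Spp1-Arg1-macrophage-like cells, a class named for osteopontin (Spp1) and arginase (Arg1), and 60.7, 81.2 and 98.4 CPM (80.1 ± 18.9, n = 3) in MHC-class-II-macrophage-like cells. In each library the order was resident, then Spp1-Arg1, then MHC class II, and over the 3 libraries none of these classes overlapped with the next. Infiltrating-monocyte-like cells had 17.5, 14.8 and 27.7 CPM, and replicate 3 was the highest library in all 4 phagocyte classes. Outside the phagocytes the highest level was in pericyte/smooth-muscle-like cells with 32.7 ± 3.16 CPM (n = 3), which overlapped with the level of the erythroid-like cells, a class with only 17 Mertk UMIs. Neutrophil-like cells, at 4.04, 3.57 and 9.45 CPM, and lining-fibroblast-like cells, at 3.39 ± 0.858, were at background, although the neutrophils of replicate 3 were above their limit of 8.52.

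At least 1 Mertk UMI was seen in 73.9% of resident-macrophage-like cells and in 1.12% of neutrophil-like cells (means of 3 libraries). These cells differed in depth, with medians of 8654, 8880 and 6194 UMIs per resident-macrophage-like cell and 1891, 2020 and 1552 per neutrophil-like cell in replicates 1, 2 and 3. When every cell was thinned to 1000 UMIs the shares were 23.2% and 0.539%.

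Axl, the receptor that depends most on Gas6, had another distribution. Lining-fibroblast-like cells, a Prg4-rich class named for the joint surface, had the highest level with 168, 170 and 165 CPM in replicates 1, 2 and 3 (168 ± 2.54, n = 3). A UMI was seen in 83.5% of them against 2.34% of neutrophil-like cells (15.9% and 1.05% after thinning). Median depth was 19613, 19240.5 and 12689.5 UMIs per lining-fibroblast-like cell. The 3 libraries were within a few CPM of each other and all above every other class. Pericyte/smooth-muscle-like cells at 138, 101 and 118 CPM and sublining-fibroblast-like cells at 96.3, 134 and 113 CPM came next and overlapped. Prg4 was also among the leading genes of other-fibroblast-like clusters of 687, 664, 646 and 399 cells. The Axl levels of these clusters were 102, 93.3, 109 and 93.5 CPM (means of 3 libraries). Among phagocytes the order was not that of Mertk: MHC-class-II-macrophage-like cells had 67.8, 51.8 and 64.0 CPM, Spp1-Arg1 cells 29.1, 29.3 and 32.2, and resident-macrophage-like cells 22.4, 34.9 and 16.6. The MHC class II libraries were above all others of these phagocytes, and the resident and Spp1-Arg1 libraries overlapped. Over the 19 classes, Pearson's r between Mertk and Axl levels on the log2(CPM + 1) scale was 0.0081, a description of classes that share 3 libraries and their free RNA.

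Tyro3, the remaining kinase of this family, was low everywhere. Its highest level was 10.7, 10.6 and 5.94 CPM in lining-fibroblast-like cells, where replicate 3 overlapped with the other fibroblasts, and sublining-fibroblast-like cells had 5.44, 5.98 and 6.38 CPM. The 11536 monocyte/macrophage-like cells together held 26 Tyro3 UMIs, or 0.303 ± 0.0159 CPM (n = 3), which is at background. No Tyro3 UMI was seen in 2427 infiltrating-monocyte-like cells, which allows a level of up to 0.211 CPM and a UMI in up to 0.124% of them, nor in 290 dendritic-cell-like cells, which allows up to 1.12 CPM and 1.03%. These limits use 3 counts and cover counting error only.

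**Figure D1:**
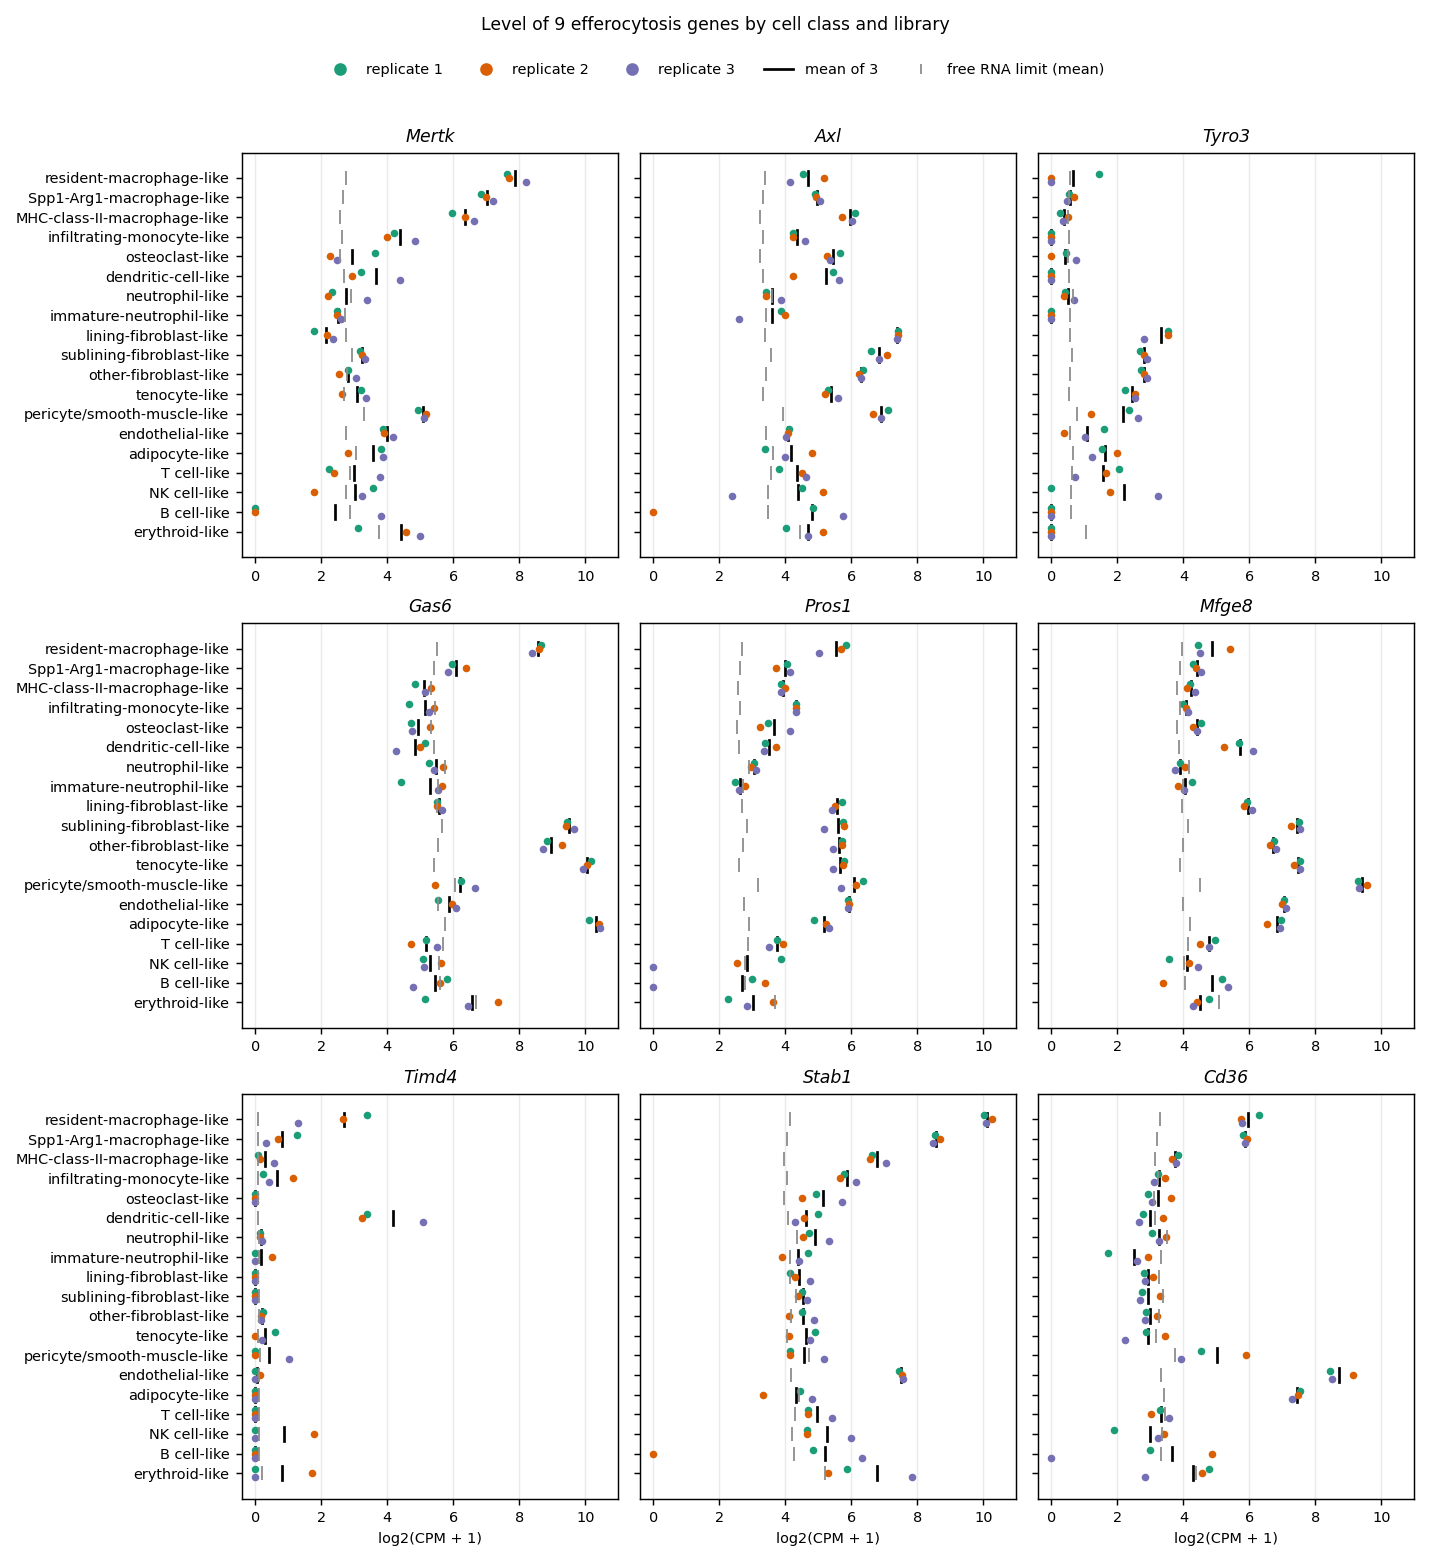
Level of each of the 9 genes in 19 cell classes as log2(CPM + 1), with 1 coloured point per library, a black bar at the mean of 3 libraries and a grey tick at the mean free RNA limit. Mertk and Stab1 peak in resident-macrophage-like cells, Axl in lining-fibroblast-like cells, Mfge8 in pericyte/smooth-muscle-like cells and Cd36 in endothelial-like cells, while most neutrophil points lie at the grey ticks.

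Gas6, the ligand of all 3 kinases, was highest in adipocyte-like and tenocyte-like cells. Adipocyte-like cells had 1099, 1378 and 1392 CPM in replicates 1, 2 and 3 (1289 ± 165, n = 3) and tenocyte-like cells 1150, 1052 and 981 (1061 ± 85.0), and the classes overlapped through replicate 1. Sublining-fibroblast-like cells followed with 704, 680 and 808 CPM, above all other-fibroblast-like libraries at 500 ± 108. Lining-fibroblast-like cells stood apart from these, at 44.5, 44.8 and 49.9 CPM against a free RNA limit of 44.5. Among phagocytes, resident-macrophage-like cells alone were far above background, with 404, 390 and 333 CPM (376 ± 37.7, n = 3; limit 44.9) and a UMI in 73.0% of cells against 9.09% of neutrophil-like cells (28.3% and 4.56% after thinning). The Spp1-Arg1 cells had 61.9, 82.3 and 56.0 CPM, above their limit of 41.8 in each library, and the infiltrating-monocyte-like and MHC class II cells, at 34.5 ± 9.07 and 33.5 ± 5.62 CPM, were at background.

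Within the fibroblasts and tenocytes Gas6 varied from cluster to cluster. A tenocyte-like cluster of 287 cells led by Gas6 itself, Cxcl14, H19 and Igf1 had 1661 ± 175 CPM (n = 3), while one of 332 cells led by Thbs4 and Fmod had 320 ± 35.1. The first was the weaker name, with a mean log2 excess of its tenocyte markers of 2.11 against 4.16. An other-fibroblast-like cluster of 765 cells was also led by Cxcl14, H19, Gas6 and Igf1. In the sublining, a cluster led by Mgp, Clec3b and H19 had 1188 ± 129 CPM, and the cluster led by Ibsp and Col2a1 had 217 ± 40.0. Lining-fibroblast-like clusters ranged from 34.4 to 54.7 CPM, so that none of the 3 came near the other fibroblasts with high Gas6.

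Pros1, protein S, better known as an anticoagulant cofactor, was spread evenly over the stroma. Pericyte/smooth-muscle-like cells had 80.29, 69.28 and 50.03 CPM and endothelial-like cells 59.0, 60.5 and 58.4, and these overlapped. Tenocyte-like cells and the 3 fibroblast classes had means from 46.1 to 49.9 CPM, and resident-macrophage-like cells 56.0, 50.1 and 31.1, all overlapping. Infiltrating-monocyte-like cells had 19.0, 19.0 and 19.2 CPM, below the lowest resident library and above the Spp1-Arg1 (14.9 ± 2.29) and MHC class II (14.1 ± 0.824) cells. Neutrophil-like cells, at 7.26 ± 0.396 CPM against a limit of 6.47, were at background, with a mean just over the limit.

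Mfge8, the bridge to integrins, marked the mural cells of vessels. Pericyte/smooth-muscle-like cells had 628, 759 and 638 CPM (675 ± 72.9, n = 3), and a UMI was seen in 89.4% of them against 3.01% of neutrophil-like cells (42.6% and 1.31% after thinning). No other class came near: tenocyte-like cells had 185, 164 and 185 CPM, sublining-fibroblast-like cells 179, 153 and 184, and endothelial-like cells 131, 126 and 137. The cluster of mural cells with the smooth muscle genes Tagln and Acta2 among its leaders had 789 ± 61.4 CPM and the other mural clusters 623 to 633. Phagocytes were low, with 28.1 ± 11.9 CPM in resident-macrophage-like and 20.2 ± 1.89 in Spp1-Arg1 cells against limits of 14.6 and 13.8. Dendritic-cell-like cells had 50.7, 36.8 and 68.3 CPM, which overlapped with the lining fibroblasts at 60.9 ± 5.91.

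Stab1, a receptor of macrophages and of sinusoidal endothelium, followed Mertk across the classes (r = 0.84 over 19 classes). Resident-macrophage-like cells had 1046, 1216 and 1076 CPM (1113 ± 90.9, n = 3), and 95.5% of them held a UMI against 5.78% of neutrophil-like cells (61.6% and 3.03% after thinning). Spp1-Arg1 cells had 368, 410 and 356 CPM, MHC class II cells 97.2, 93.1 and 133, and infiltrating-monocyte-like cells 54.2, 48.9 and 68.8. As for Mertk, the 4 phagocyte classes did not overlap with one another. Endothelial-like cells, at 174, 184 and 187 CPM, lay between the Spp1-Arg1 and MHC class II cells. Neutrophil-like cells had 25.2, 22.3 and 39.0 CPM, above their free RNA limit in each library (mean limit 19.3).

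Endothelial-like cells had the highest level of Cd36, with 346, 565 and 358 CPM (423 ± 123, n = 3), and 74.1% of them held a UMI against 1.82% of neutrophil-like cells (31.6% and 0.996% after thinning). Median depth was 11099, 12640 and 10898 UMIs per endothelial-like cell. Adipocyte-like cells, which use Cd36 for fatty acid uptake, had 186, 178 and 156 CPM. Among phagocytes the resident cells at 77.6, 52.4 and 53.6 CPM overlapped with the Spp1-Arg1 cells at 54.5, 59.6 and 57.9, the MHC class II cells had 13.2, 11.6 and 12.8, and infiltrating-monocyte-like cells had 8.56 ± 1.18 against a mean limit of 8.40 and were not above it in all 3 libraries. Vessel clusters differed: the one led by the capillary genes Fabp4, Gpihbp1 and Magi1 had 939 ± 160 CPM of Cd36, and the one led by the venular genes Vwf, Ackr1 and Selp had 153 ± 38.5. Stab1 had the reverse order in them, with 125 ± 12.4 CPM in the first and 270 ± 19.1 in the second. Cd36 is itself among the genes that lead the first of these clusters.

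Timd4, a receptor that marks long-lived resident macrophages in several tissues, was close to absent. Resident-macrophage-like cells held 20 Timd4 UMIs in 17 of 429 cells, or 9.48, 5.32 and 1.45 CPM in replicates 1, 2 and 3. Dendritic-cell-like cells held 42 UMIs in 7 of 290 cells, 19 of them in 1 cell, and their 9.44, 8.49 and 32.9 CPM overlapped with the resident level. No UMI was seen in 761 lining-fibroblast-like cells (a share of up to 0.394% is allowed by 3 counts) or in 1438 sublining-fibroblast-like cells (up to 0.209%). Whole libraries had 0.454, 0.371 and 0.422 CPM, so results for this gene rest on few UMIs.

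Because classes differ in size and depth, the class with the highest level need not hold most of the transcripts. Resident-macrophage-like cells held 9.59% of the Mertk UMIs of named cells (mean of 3 libraries) and the other monocytes and macrophages 72.7%. For Stab1 these shares were 15.5% and 53.6%, with 16.9% in endothelial-like cells. Fibroblasts held 57.0% of Axl, 73.6% of Tyro3, 54.4% of Gas6, 45.8% of Pros1 and 40.5% of Mfge8 UMIs. Tenocyte-like cells added 30.0% of Gas6, endothelial-like cells 16.5% of Pros1 and pericyte/smooth-muscle-like cells 18.8% of Mfge8, while adipocyte-like cells, which had the highest Gas6 level, held 3.85%. Endothelial-like cells held 70.1% of Cd36 UMIs. These shares follow the numbers of each cell type recovered by dissociation.

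**Figure D2:**
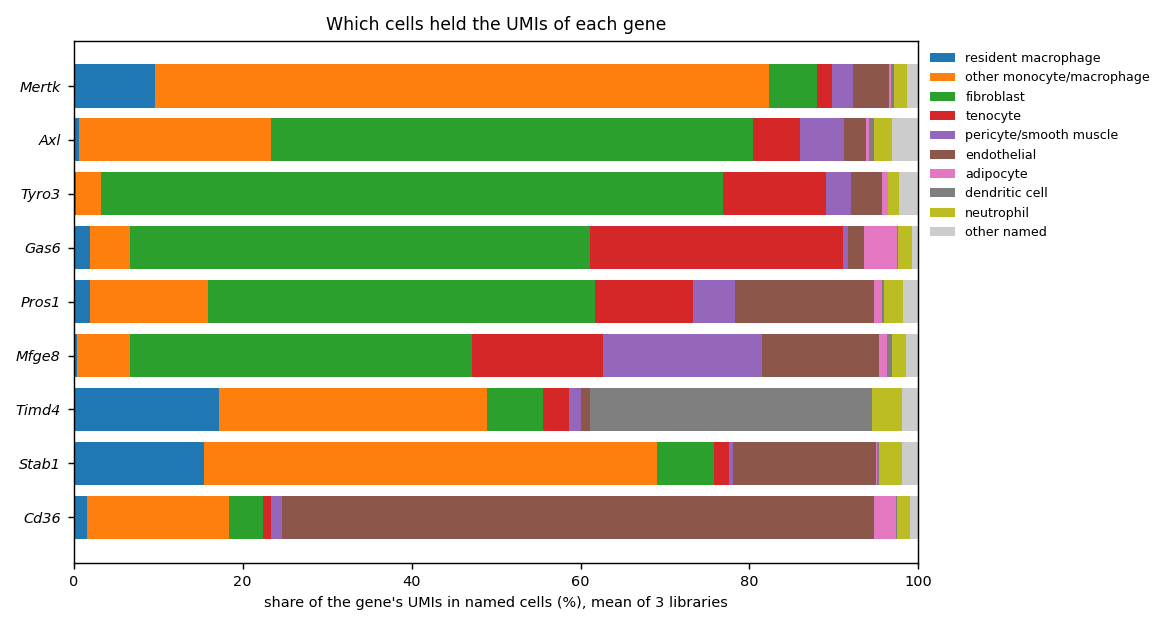
Share of each gene's UMIs (%, x axis, mean of 3 libraries) held by groups of named cells, as stacked bars that add up to 100% for each gene. Monocyte/macrophage groups fill most of the Mertk and Stab1 bars, fibroblasts most of the Axl and Tyro3 bars, and endothelial cells 70.1% of the Cd36 bar.

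Resident against infiltrating phagocytes was the first comparison, between cells with the RNA markers of tissue macrophages and cells with those of recruited monocytes. Stab1, Mertk, Gas6, Cd36 and Pros1 were all higher in the resident-macrophage-like cells, and no member was lower. Counts summed per library and class were tested with edgeR's quasi-likelihood test with the library as a block, and a call needed a p under 0.05 after Benjamini-Hochberg adjustment over all genes, with a difference of 1 log2 unit or more. Of the 9 genes 7 had enough counts, and 5 of the 7 were called higher; over the 9793 genes tested, 9.55% were called higher and 7.71% lower, 17.3% in all. These backgrounds include the genes that defined the classes. The median log2 fold change was 2.83 over the 7 and 0.00588 over all genes.

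Stab1 was 4.32 ± 0.12 log2 units higher (± SE; edgeR adjusted p = 2.15e-30), Mertk 3.58 ± 0.12 (1.24e-27), Gas6 3.49 ± 0.12 (4.80e-27), Cd36 2.83 ± 0.18 (1.07e-17) and Pros1 1.29 ± 0.17 (1.92e-08). Each of these was higher in 3 of 3 libraries. Mfge8 was 0.87 ± 0.21 log2 units higher (edgeR adjusted p = 0.000531), short of the fold required, and was called when replicate 1 (1.03) or replicate 3 (1.02) was left out. Axl did not pass, at 0.38 ± 0.21 (edgeR adjusted p = 0.149) and higher in 2 of 3 libraries. Tyro3, with 2 and 0 UMIs, and Timd4, with 20 and 9, were too low to test. Summed over 7 fibroblast markers, the resident cells had 4158 to 5070 CPM and the infiltrating cells 3503 to 4036, against 46554 to 48102 in fibroblast-like cells. Gas6 and Cd36 were at background in the infiltrating cells and remained called with the free RNA limit subtracted from both classes. Subtraction leaves little of a level at its limit, so it could hardly undo these calls.

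Of the 87 other efferocytosis genes 73 were tested here, and 16 were higher and 9 lower in resident-macrophage-like cells (median log2 fold change 0.22). Over all 9793 genes 9.55% were higher and 7.71% lower. Soluble opsonins and the genes of digestion and lipid export made up most of the higher ones. Of 9 opsonins tested 3 were higher, led by C1qa, a subunit of the complement protein that coats dying cells (6851 ± 836 against 250 ± 87.2 CPM, n = 3; log2 4.85). Of 13 lysosomal genes 5 were higher, led by the protease gene Ctsd (4920 ± 510 against 560 ± 106 CPM; log2 3.16), and of 10 lipid efflux genes 5 were higher, led by the lipid carrier Apoe (log2 2.98). Of 11 engulfment machinery genes none was called in either direction. The lipoprotein receptor Olr1 (log2 -2.32), the opsonin Thbs1 (-1.87), the lysolipid sensor Gpr132 (-1.72), the inhibitory ligand Cd24a (-1.56) and the flippase Atp11a (-1.47) were lower. S1pr1, the sphingosine phosphate receptor, was higher (3.09), as was the scavenger receptor Scarf1 (1.10), while the transporter Abca7 was lower (-1.79). Of these 11 named genes, whose edgeR adjusted p ranged from 2.48e-29 to 0.00231, 6 were called under all 14 alternatives, and Scarf1 under 9.

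**Figure D3:**
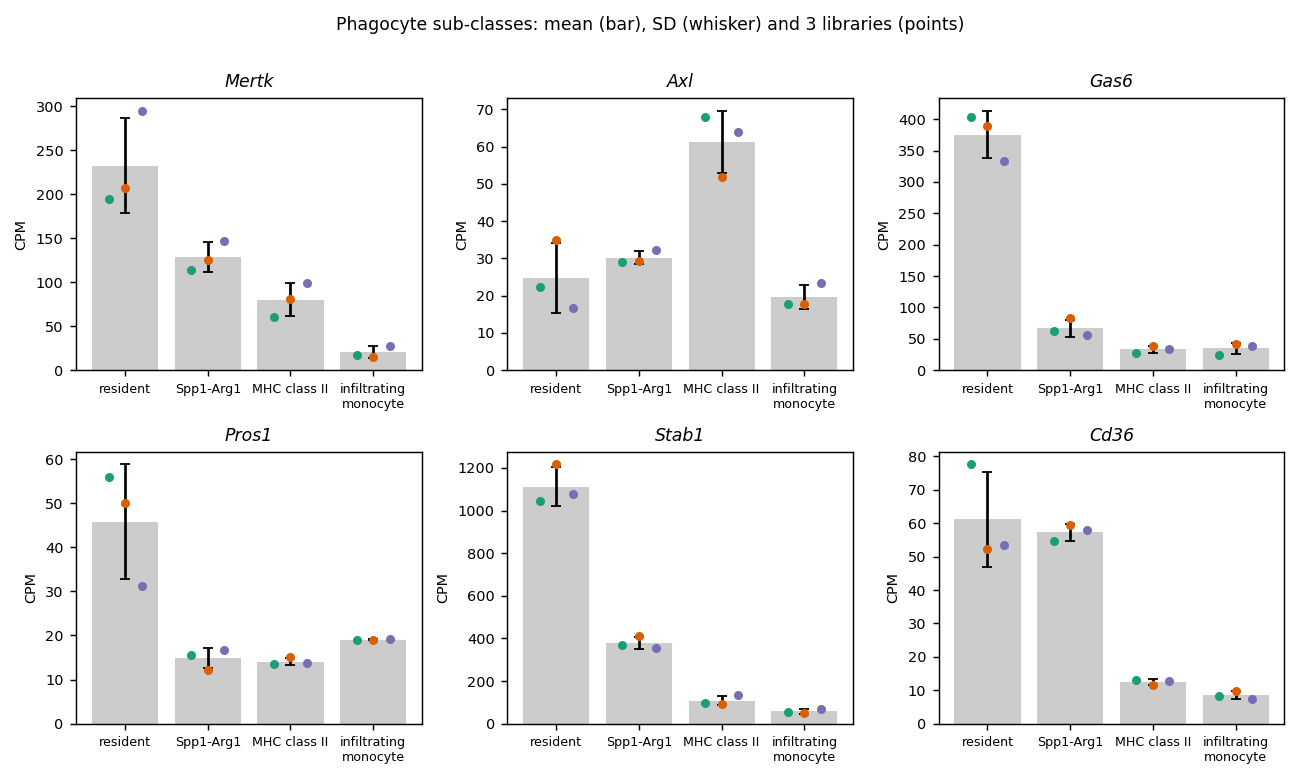
CPM of Mertk, Axl, Gas6, Pros1, Stab1 and Cd36 in 4 phagocyte classes, as the mean of 3 libraries (bar), its SD (whisker) and the libraries (points, coloured by replicate). Mertk and Stab1 step down from resident to Spp1-Arg1 to MHC class II to infiltrating cells without overlap, Gas6 stands out in the resident cells, and Axl is highest in the MHC class II cells.

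The second comparison was chosen after the levels were seen and set the 2 largest macrophage classes against each other. Cd36, Stab1 and Gas6 were higher in Spp1-Arg1-macrophage-like than in MHC-class-II-macrophage-like cells. Of 7 members tested these 3 were called higher and none lower, beside 2.50% higher and 4.35% lower among 12922 genes (6.85% in all). Cd36 was 2.30 ± 0.09 log2 units higher (edgeR adjusted p = 6.82e-22), Stab1 1.93 ± 0.08 (2.15e-21) and Gas6 1.10 ± 0.08 (3.30e-14), each in 3 of 3 libraries. Mertk, at 0.82 ± 0.07 higher (edgeR adjusted p = 1.19e-12), and Axl, at 0.91 ± 0.08 lower (log2 -0.91; 1.34e-11), had the same direction in 3 of 3 libraries but were under the fold required. Without the 535-cell cluster that had more MHC class II markers than its own, an alternative added after the data were seen, these values were 2.41 for Cd36, 2.07 for Stab1, 1.21 for Gas6 and 0.93 for Mertk, and Axl, at -1.04, was then called lower. Axl was past the fold in 5 of the 14 other alternatives, and Gas6 fell short in 2, with 0.98 on library totals and 0.97 when single cells were gated. The Gas6 level of the MHC class II cells was at background, so the size of this difference depends on free RNA: the fitted value with that limit subtracted was 11.1, which is no bound. The Spp1-Arg1 class made up 7.92%, 4.21% and 14.5% of cells in replicates 1, 2 and 3.

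The Spp1-Arg1 class was not uniform. Its cluster led by Arg1, Pid1 and F7 had 212 ± 51.7 CPM of Mertk, which is itself among its 10 leading genes, and that led by Pf4, Arg1 and Apoe 202 ± 20.3, both overlapping with the resident level, while the cluster with Cd74 and H2-Ab1 among its leaders, after Arg1, F7 and Trem2, had 58.4 ± 6.29. For Stab1 the cluster led by Pf4, C1qa, Apoe and Ccl8 had 604 ± 31.5 CPM, the highest of them, and it also had the most Gas6, at 138 ± 7.55. The 10 leading genes of this cluster of 798 cells held 1 marker of its own class, Gpnmb, and 1 of the resident class, Folr2. An MHC-class-II-macrophage-like cluster of 686 cells likewise held 1 marker of its own class, Cd74, and 1 of the Spp1-Arg1 class, Arg1. The class comparison was not run without either of these clusters. Cd36 reached 112 ± 25.5 CPM in the cluster led by Arg1, Pf4, F7 and C1qa. MHC class II clusters ranged from 31.0 to 154 CPM of Mertk and from 16.8 to 81.0 of Axl. The cluster with the most Axl, led by H2-Ab1 and H2-Eb1, was the one with the least Mertk. Of the 87 pathway genes 81 were tested between the classes, and 8 were higher and 3 lower in Spp1-Arg1 cells, beside 2.50% and 4.35% of all genes tested. Ctsd (log2 2.15), S1pr1 (2.02), the nuclear receptor Rxra (1.73) and C1qc (1.22) were higher, and the fractalkine receptor Cx3cr1 (-1.65) and the engulfment adaptor Elmo1 (-1.23) lower, with edgeR adjusted p from 3.17e-22 to 2.42e-14.

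Monocyte/macrophage-like cells as a whole were then set against neutrophil-like cells, the short-lived granulocytes that are cleared. The receptors Mertk, Stab1, Axl and Cd36 were higher in the macrophages, and the bridging ligands were not called except under some of the alternatives. Of 7 members tested 4 were called higher and none lower, beside 24.2% and 21.9% of 13894 genes (46.1% in all). Mertk was 3.71 ± 0.12 log2 units higher (edgeR adjusted p = 5.30e-16), Stab1 2.66 ± 0.09 (1.51e-15), Axl 1.57 ± 0.11 (1.05e-10) and Cd36 1.32 ± 0.14 (6.98e-08), all in 3 of 3 libraries. Pros1 was 0.84 ± 0.12 higher (4.02e-06) without reaching the fold, and Gas6 (0.08 ± 0.08; 0.393) and Mfge8 (0.04 ± 0.12; 0.795) did not pass. For Gas6, Mfge8, Pros1, Mertk, Axl and Cd36 the neutrophil level was at background, so these results depend on how free RNA is treated. With its limit subtracted from both classes all 3 ligands were called higher in the macrophages (edgeR adjusted p = 0.00199 for Gas6, 0.00737 for Mfge8 and 0.0104 for Pros1), with fitted values of 11.2, 9.33 and 3.53 that are no bounds. Such subtraction leaves little of a neutrophil level at its limit and so favours a call. Pros1 also passed the fold on library totals (1.22) and without the low-count filter (1.10). The Cd36 difference is the least secure: it was 0.65 with cells thinned, and -0.23 when cells were gated one by one. Scaling by library totals moved the median of all genes to 0.41, and the 4 calls held there.

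Of 83 pathway genes tested 27 were higher and 22 lower in the macrophages (median log2 fold change -0.33), beside 24.2% and 21.9% of all 13894 genes. The largest differences upward were in C1qa (3.79), Apoe (3.44), the scavenger receptor Msr1 (3.25), the nucleotide receptor P2ry6 (2.34), the Rac activator Dock1 (2.30) and the sterol carrier Npc2 (1.93). Downward they were in Cd24a (-3.70), the lipid-binding inhibitory receptor Cd300lf (-3.08), the GTPases Rac2 (-2.72) and Rab7 (-1.97), the ubiquitin ligase Mylip (-1.14) and Atp11a (-1.12). The edgeR adjusted p of these 12 genes ranged from 1.74e-17 to 2.80e-10, and 10 were called in every alternative. None of the 7 "do not eat me" genes was higher in the macrophages and 4 were lower.

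The comparison of fibroblast-like with monocyte/macrophage-like cells asked which compartment holds the ligands and which the receptors. All 9 genes passed the test. The 3 bridging ligands and the kinases Tyro3 and Axl were higher in fibroblasts, and Mertk, Stab1, Timd4 and Cd36 were lower. Thus 5 of 9 were called higher and 4 of 9 lower, while 23.5% and 19.7% of 15261 genes were (43.2% in all). Tyro3 was 4.48 ± 0.20 log2 units higher in fibroblasts (edgeR adjusted p = 1.96e-09), Gas6 3.03 ± 0.07 (1.93e-11), Mfge8 2.62 ± 0.07 (4.10e-11), Pros1 1.55 ± 0.08 (5.01e-09) and Axl 1.31 ± 0.09 (6.24e-08).

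On the macrophage side, Mertk was 3.85 ± 0.09 log2 units lower in fibroblasts (log2 -3.85, edgeR adjusted p = 1.69e-11), Stab1 -3.36 ± 0.09 (2.85e-11), Timd4 -2.77 ± 0.42 (9.89e-05) and Cd36 -2.04 ± 0.14 (1.04e-07). Every one of the 9 directions was seen in 3 of 3 libraries. Mertk (6.10 CPM against a mean limit of 6.01), Timd4 (0.0912 against 0.0721) and Cd36 were at background in fibroblasts, so the sizes of these differences depend on free RNA. Timd4 rested on 8 UMIs in fibroblasts and 58 in macrophages, and lost its call with cells gated one by one (-0.59), as did Cd36 (-0.51). Summed over 7 macrophage markers the fibroblasts had 972 to 1442 CPM and the macrophages 15035 to 18539. Of 84 pathway genes tested 9 were higher and 44 lower in fibroblasts (median -1.03), beside 23.5% and 19.7% of all genes tested. The engulfment adaptor Gulp1 (3.87), the opsonin Ptx3 (3.18), the sphingosine kinase Sphk1 (2.91) and the integrin subunit Itgb3 (2.59) were higher, and C1qa (-4.25), Apoe (-4.01), the oxidase subunit Cybb (-3.97), Msr1 (-3.88), Gpr132 (-3.81), the inhibitory receptor Pirb (-3.64), the Rac activator Vav1 (-3.64) and Adam17 (-1.34), a protease that sheds Mertk, were lower. Their edgeR adjusted p ranged from 1.69e-11 to 1.13e-08, and all 12 were called in every alternative.

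Lining was compared with sublining to see how ligands and receptors were divided over the layers of the membrane. Other-fibroblast-like clusters with Prg4 among their leading genes were in neither class. Gas6 and Mfge8 were lower in lining-fibroblast-like cells, and Axl was the member with the largest positive value without passing the fold. Of 8 members tested 3 were called lower and none higher, beside 9.93% lower and 4.85% higher of 11989 genes (14.8% in all). Gas6 was 4.02 ± 0.09 log2 units lower (log2 -4.02, edgeR adjusted p = 7.74e-12), Mfge8 -1.54 ± 0.08 (2.00e-08) and Mertk -1.36 ± 0.24 (0.000517), the last on 50 and 157 UMIs and at background in both layers. Gas6 in the lining was at background too (46.4 CPM against a mean limit of 44.5), so the size of its difference depends on free RNA. Over the alternatives the Gas6 value ranged from -7.98 to -0.38. Axl was 0.52 ± 0.09 higher (edgeR adjusted p = 0.000529) in 3 of 3 libraries. Tyro3 (0.52 ± 0.24; 0.105), Pros1 (-0.05 ± 0.11; 0.739), Stab1 (-0.15 ± 0.14; 0.417) and Cd36 (-0.05 ± 0.21; 0.857) did not pass, and Timd4 had 0 UMIs in both.

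The Gas6 difference depended on how the layers were drawn: with each cell gated on its own markers, without clusters, it was -0.38 and short of the fold, and the Axl level of the lining was 93.6 CPM. Summed over 7 fibroblast markers the lining had 18626 to 22808 CPM and the sublining 66696 to 76126, and the part of this gap in the differences was not tested. Each lining cluster counted 6 cycling markers and the sublining clusters 0 or 5, and the part of cycling was not tested either. Of 78 pathway genes 2 were higher and 5 lower in the lining, beside 4.85% higher and 9.93% lower of all genes tested. The higher ones were the nuclease gene Dnase2a (log2 1.08) and the lipid-binding protein gene Anxa1 (1.01), and complement C3 (-3.49) and Gulp1 (-2.81) were among the lower ones. Their edgeR adjusted p ranged from 1.11e-11 to 2.07e-06, and none of these 4 was called in every alternative. Within the lining, the cluster led by Prg4, Hbegf and Has1 had 254 ± 18.1 CPM of Axl, and the other clusters 133 ± 8.39 and 141 ± 10.0, with no overlap between the first and the others.

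Endothelium was set against the monocyte/macrophage-like cells to see which scavenger and kinase receptors vessels and phagocytes share. Cd36, Mfge8 and Pros1 were higher in endothelium, and Mertk and Axl were lower. Of 7 members tested 3 were called higher and 2 lower, beside 18.0% and 17.8% of 14027 genes (35.8% in all). Cd36 was 3.68 ± 0.18 log2 units higher (edgeR adjusted p = 1.63e-09), Mfge8 2.64 ± 0.07 (4.12e-12) and Pros1 1.65 ± 0.07 (4.16e-10). Mertk was -2.77 ± 0.09 (3.34e-11) and Axl -1.57 ± 0.09 (1.19e-08), with all 5 directions in 3 of 3 libraries. Stab1, at -0.51 ± 0.07 (5.10e-05), passed the p but not the fold, and Gas6 (-0.21 ± 0.09; 0.0512) did not pass.

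Erythroid markers were also higher in the endothelial-like cells, with 304 to 831 CPM summed over 5 genes against 86.6 to 143 in macrophages, and their part in these results was not tested. Adipocyte markers, which could bring Cd36 with them, summed to 13.9 to 45.6 CPM in endothelium and 18.8 to 30.4 in macrophages. Of 81 pathway genes tested 9 were higher and 38 lower in endothelium (median -0.93), beside 18.0% and 17.8% of all genes tested. S1pr1 (4.13), Itgb3 (4.06), the nuclear receptor Pparg (3.65) and Gulp1 (3.17) were higher, and C1qa (-4.40), Apoe (-3.95), the phosphatidylserine receptor Havcr2 (-3.91), Cybb (-3.82), Gpr132 (-3.64), Vav1 (-3.62), Pirb (-3.45) and Adam17 (-1.36) were lower, with edgeR adjusted p from 1.21e-12 to 1.38e-09. These comparisons with macrophages share the same macrophage sums.

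**Figure D4:**
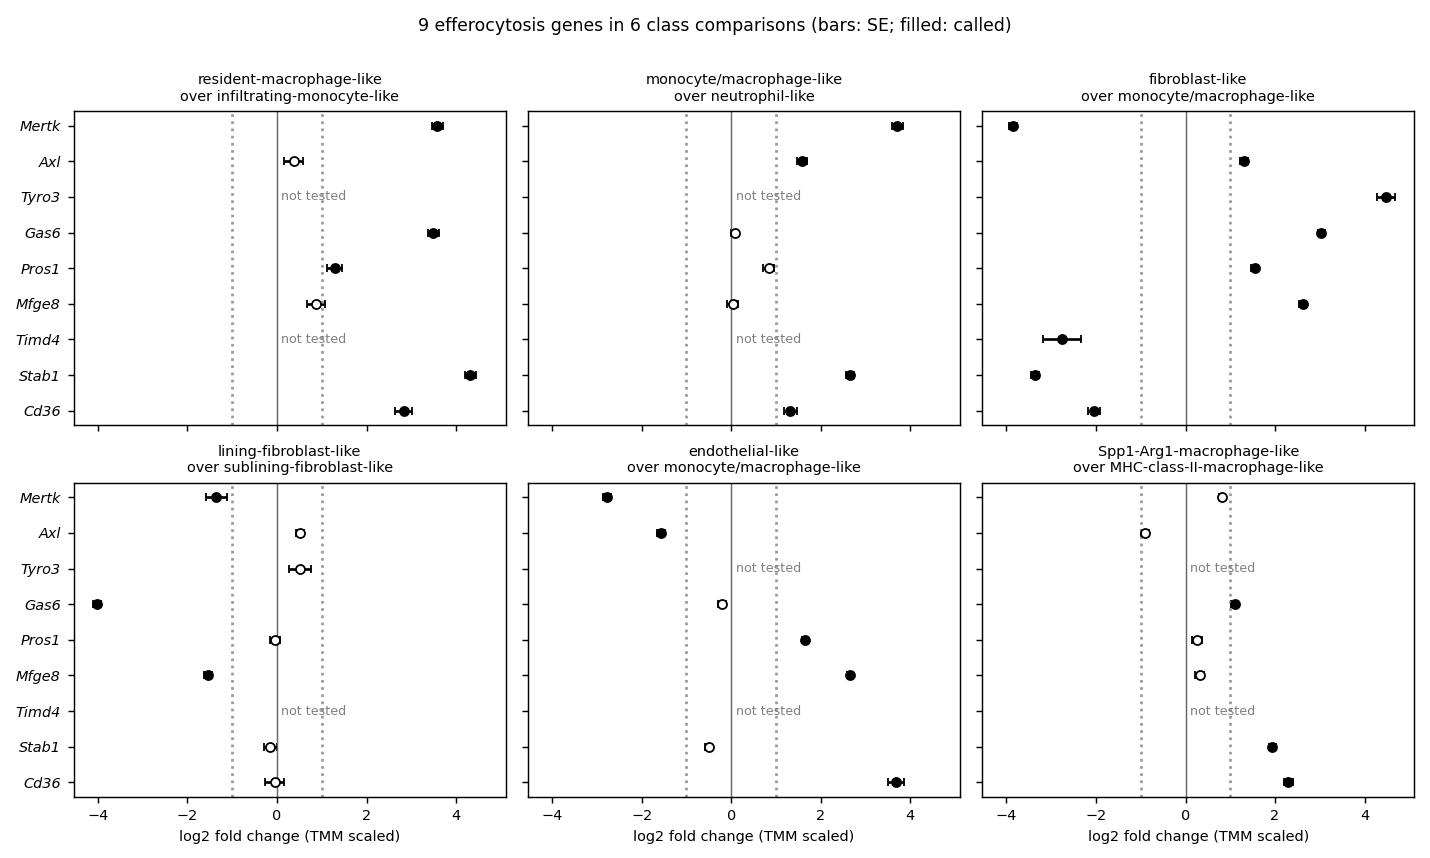
Log2 fold change of the 9 genes in the 6 class comparisons (points, with SE as bars; filled where called with edgeR; dotted lines mark the 1 log2 unit that a call required). All 9 are called in fibroblasts over macrophages, with 5 to the right and 4 to the left, and 5 are called to the right in resident over infiltrating cells.

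Receptors and ligands were detected in the same cells about as often as their separate shares would give. Among resident-macrophage-like cells 70.7 ± 0.74% (n = 3) held UMIs of both Mertk and Stab1, 55.3 ± 6.47% of Mertk and Gas6, and 13.3 ± 2.85% of Mertk and Axl, beside 70.5%, 53.9% and 12.0% from multiplying the separate shares within each library. After thinning to 1000 UMIs the first share was 15.1% and the second 6.21%, so these shares depend on depth. In sublining-fibroblast-like cells 50.5 ± 6.30% held both Axl and its ligand Gas6 (product 51.0%; 3.72% after thinning), and in pericyte/smooth-muscle-like cells 51.7 ± 5.83% held Axl and Mfge8 (product 48.5%; 4.25% after thinning). Stab1 and Cd36 were found together in 55.5 ± 2.70% of endothelial-like cells (product 51.0%; 4.45% after thinning). Lining-fibroblast-like cells, whose Gas6 was at background, still gave 44.1% for Axl with Gas6 (product 41.5%) before thinning and 1.08% after. Whether any of these shares differs from its product was not tested.

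By correlation of log2(CPM + 1) over the 19 classes, among 12126 other genes with at least 10 CPM in some class, Mertk was most like Snx24 (r = 0.93), Lgmn (0.92) and Adap2 (0.91), all highest in resident-macrophage-like cells. Stab1 was most like Abcc3 (0.90), Plxna4os1 (0.89) and, again, Lgmn (0.89), the gene of a lysosomal protease. Gas6 was most like Igf1 (0.98), Ptprd (0.92) and the tenocyte marker Comp (0.91). The genes closest to Axl were Ncs1 (0.88), Slc7a2 (0.86) and Gm9780 (0.84), and those closest to Tyro3 were Rcn1 (0.93), Numbl (0.92) and Tceal3 (0.92). Pros1 came with B4gat1 (0.94), Plekhh3 (0.94) and Tsc2 (0.93), and Mfge8 with Pcdh19 (0.95), Ube2e2 (0.94) and Il6st (0.94), and the 2 ligands correlated with each other (0.80). Cd36 was most like Sult1a1 (0.90), Thrsp (0.83) and Ubd (0.83), and Timd4 like Cd209d (0.89), Clec10a (0.84) and the dendritic cell marker Cd209a (0.81). The Timd4 values rest on few UMIs, with 42 in 7 dendritic-cell-like cells and 19 of these in 1 cell. All these correlations describe 19 classes that share libraries and free RNA.

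Promoter sequences are shown for the pair of receptors that followed each other across classes, Mertk and Stab1, for the ligands Gas6 and Mfge8, and for Axl, which followed neither Mertk nor Stab1. Each is the 150 bases before the RefSeq gene start in the mouse build GRCm38.p6, read 5′ to 3′ on the gene's own strand, and none overlaps an annotated exon. A run of bases shortly after the start was also sought in annotated transcripts of the same gene. It was found for Stab1, Mfge8, Tyro3, Pros1 and Timd4, and not for Mertk, Gas6, Axl and Cd36. The starts of the latter genes, and distances from them, are therefore less certain. Capitals mark matches, on either strand, to GAGGAA (the core bound by PU.1, a factor of myeloid cells), TGCTGA (the core bound by MAF factors, which macrophages use), TGANTCA (AP-1), GGGCGG (the GC box bound by SP1) or TATAAA (the TATA box). The deposited matrices name a later build, so no coordinate was taken from them.
Mertk, chr2:128698765-128698914, plus strand: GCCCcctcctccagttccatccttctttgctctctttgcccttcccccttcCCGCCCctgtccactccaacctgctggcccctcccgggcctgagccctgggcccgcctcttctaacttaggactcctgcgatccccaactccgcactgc
Stab1, chr14:31168642-31168791, minus strand: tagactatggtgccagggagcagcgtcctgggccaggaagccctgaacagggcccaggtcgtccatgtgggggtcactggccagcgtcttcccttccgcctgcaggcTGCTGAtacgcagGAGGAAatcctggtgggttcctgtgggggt
Gas6, chr8:13494536-13494685, minus strand: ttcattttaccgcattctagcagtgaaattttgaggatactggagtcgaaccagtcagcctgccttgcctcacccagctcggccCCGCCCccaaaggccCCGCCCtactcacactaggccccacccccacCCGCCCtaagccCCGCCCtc
Mfge8, chr7:79149061-79149210, minus strand: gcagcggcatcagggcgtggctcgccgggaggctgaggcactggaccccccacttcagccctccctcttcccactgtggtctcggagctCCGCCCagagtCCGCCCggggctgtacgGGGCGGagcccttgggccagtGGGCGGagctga
Axl, chr7:25788734-25788883, minus strand: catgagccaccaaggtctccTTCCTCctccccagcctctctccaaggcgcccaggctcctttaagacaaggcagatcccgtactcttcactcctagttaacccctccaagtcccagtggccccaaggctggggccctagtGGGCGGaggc

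Mertk and Stab1 did not hold the same letters. Stab1 had a MAF core 43 to 38 bases and a PU.1 core 30 to 25 bases before its start and no GC box, and Mertk had GC boxes and neither of the others; the capitals at the first bases of Mertk are the end of a GC box that begins before the stretch. Gas6 and Mfge8 each held 4 GC boxes in the stretch shown. Over the 250 bases before the start, all 9 members were matched to RefSeq: 7 of 9 held a GC box (all but Timd4 and Stab1), against 32.7% of 32851 mouse promoters. The PU.1 core was in 3 (Axl, Mfge8 and Stab1; 23.3% of all promoters), the MAF core in 3 (Timd4, Stab1 and Cd36; 16.1%), and the AP-1 site (6.75%) and the TATA box (12.4%) in 0. A match is a run of letters and not a measured site.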

How the data were processed

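Synovial cells were released with collagenase and DNase, barcoded in droplets (DNBelab C) and read on a DNBSEQ-T7 machine, per the labels. The authors deposited raw UMI counts for each gene in each barcode, which per the file headers PISA 1.0 produced. Seurat 3.0.2, R 3.6 and the build GRCm39 (mm39) are named in the submitters' processing notes. An aligner and an annotation were not given in the sources used here. The genes, lists and tests below were chosen with earlier results of these data known.

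A barcode needed 200 genes or more and no more than 20% of UMIs from mitochondrial genes, and 82 failed. Libraries held 101384374, 99782608 and 116125707 UMIs. Doublets were scored with Scrublet (scanpy 1.11.5, expected rate 6%) and removed at a score of 0.2, chosen after the scores were seen, because the automatic threshold marked 410, 0 and 1266 cells. This left out 489, 457 and 901 cells. Counts were scaled to 10000 per cell, log-transformed and clustered (Leiden, with leidenalg 0.10.2 and igraph 0.11.9; 2000 variable genes, 30 components, 30 neighbours, resolution 1 and then 0.5, seed 1), without the 96 efferocytosis genes.

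Clusters were named from 30 marker lists. A name needed 3 markers, each in at least 10% of cells and at 2 or more times the median cluster, with a mean log2 excess of 1.5 (2.0 and over 50% of the list for sub-classes). Clusters with mixed profiles, led by osteoblast or Schwann cell markers or matching no list were set aside, 1451 cells or 3.93% in all. Assigning each cell by the list with the largest share of its UMIs gave the same lineage for 87.2% of 35424 named cells. Of the symbols 21479 were in all libraries, and others were taken as 0 where missing.

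Raw counts were summed per library and class and tested with edgeR 4.0.16 in R 4.3.3 (quasi-likelihood, TMM, filterByExpr, library as block). Both sums of a library come from the same mice, and deviations of the 3 libraries correlated within pairs of classes by 0.132 to 0.481. Named were all 9 genes, and from each pathway list the called gene with the largest change in each direction at 10 CPM or more. DESeq2 1.42.0 and 13 other settings were alternatives. On counts simulated with 100 genes changed by 1.5 log2 units, 97 to 100% were recovered in each comparison, with 1 or 2 false calls.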

Additional observations from a re-analysis of the deposited data

How the results depend on the processing

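Each comparison was repeated under 14 alternatives. Of 621 log2 fold changes of the 9 genes so obtained, 597 kept their side of the threshold, 586 with the same sign and 11, over 7 pairs of gene and comparison that were not called, with the other; 16 passed it newly, 7 no longer did and 1 called value turned: Cd36 in macrophages over neutrophils was -0.23 (edgeR adjusted p = 0.267) with cells gated one by one. Besides those named above, the losses were Mertk in lining over sublining (-0.47, gated cells), and the gains included Cd36 in lining over sublining (-1.82, gated cells). Leaving out 1 library changed no call of the 9 genes other than Mfge8 in resident over infiltrating cells. Over all genes, thinning to 1000 UMIs, with fewer genes tested, called 862 genes in resident over infiltrating cells (1690 otherwise), 533 in lining over sublining (1772), 3270 in endothelium over macrophages (5022) and 520 in Spp1-Arg1 over MHC class II cells (885, and 589 with gated cells). Without 1 library these totals ranged from 1756 to 1960, 1798 to 1874, 5002 to 5244 and 865 to 981 in the same order, from 6402 to 6660 in macrophages over neutrophils and from 6496 to 6862 in fibroblasts over macrophages. Without the library as a block, 926 genes were higher and 741 lower in resident over infiltrating cells, and 307 and 534 in Spp1-Arg1 over MHC class II cells, and dropping this pairing changed no call of the 9 genes. The split moved with scaling: library totals gave 4741 higher and 2107 lower in macrophages over neutrophils (3367 and 3038 otherwise; 1651 and 2949 with gated cells), 2856 and 2143 in endothelium over macrophages (2521 and 2501) and 236 and 782 in Spp1-Arg1 over MHC class II cells (323 and 562). The levels of Mertk and Stab1 in resident cells were 161 and 1402 CPM with gated cells, and 310 for Mertk after thinning. Timd4 in dendritic-cell-like cells gave no value with gated cells. The causes of these shifts were not tested. Depth limits Tyro3 and Timd4 most, and 3 pools of mice limit every test.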
